A study of Mus musculus with 2 samples.

Results

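The genes described here are 10 early response genes of the mouse prostate, chosen by name from the 19320 features of the deposited table, and all 10 were found. They are the AP-1 subunit genes Fos, Fosb, Jun, Junb and Jund, the related factor gene Atf3, the zinc finger factor gene Egr1, the early response gene Ier2, and the feedback genes Dusp1 and Zfp36. RNA of single prostate cells was read from its 3′ ends in droplets, and each captured molecule was counted once by its unique molecular identifier (UMI). There were 2 samples, 1 from tissue with intraepithelial neoplasia (PIN) and 1 from tissue with adenocarcinoma (PCa), so each group was 1 library with no replicate. Both came from R26 mTmG/hAR:Osr1 Cre/+ mice of a mixed C57BL/6 and 129S1/SvImJ background. The PIN and PCa tissues came from mice aged 6 and 12 months, the ages given for the histology of those tissues. In these mice Cre under the Osr1 promoter switches on a human androgen receptor transgene (hARtg, listed as ARQ) together with membrane-bound green fluorescent protein (mGFP, listed as EGFP), so that EGFP marks cells whose lineage expressed Osr1. No sample without the transgene was in the table.

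Early response genes are transcribed within minutes of a stimulus, without the need for new protein. Growth factor signals act through MAPK kinases on factors bound at these genes, and calcium and cyclic AMP signals act through CREB. FOS and JUN proteins pair through leucine zippers to form AP-1, ATF3 is a stress-induced partner that often represses, and EGR1 binds GC-rich sites. The phosphatase DUSP1 switches MAPK kinases off, and ZFP36 marks short-lived messages for decay, including several early response messages, so both act as brakes. AP-1 factors and the androgen receptor are known to interact on prostate chromatin. The same genes also respond to warm enzymatic dissociation, and these tissues were digested with collagenase for more than 2 hours and then with TrypLE for 30 minutes, both at 37 °C in medium with dihydrotestosterone. No sample was dissociated in another way, so levels present in the animal and levels acquired during digestion cannot be told apart here.

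The sequence just before the start site shows the cyclic AMP response element (CRE) letters that several of these genes share. RefSeq promoters on GRCm38.p6, the mm10 assembly, matched 8 of the 10 genes, and Egr1 and Ier2 had none. Fos and Atf3 are shown for their contrast between cell classes described below, Dusp1 because it went against Atf3, and Jun because it lacked the CRE letters. Capitals mark matches to TGACGTCA (CRE), TGACG (its core, part of the former), TGANTCA (AP-1), CCAAT and the CArG box on either strand, or TATAAA on the gene's strand. Each line gives the 250 bases before the annotated start, 5′ to 3′ along the gene.
Fos, chr12:85473640-85473889, plus strand: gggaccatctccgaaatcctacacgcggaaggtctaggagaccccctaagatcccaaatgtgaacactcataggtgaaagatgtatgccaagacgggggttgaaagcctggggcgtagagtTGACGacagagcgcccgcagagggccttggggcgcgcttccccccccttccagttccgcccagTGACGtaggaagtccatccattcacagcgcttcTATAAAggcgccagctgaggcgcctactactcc
Jun, chr4:95052223-95052472, minus strand: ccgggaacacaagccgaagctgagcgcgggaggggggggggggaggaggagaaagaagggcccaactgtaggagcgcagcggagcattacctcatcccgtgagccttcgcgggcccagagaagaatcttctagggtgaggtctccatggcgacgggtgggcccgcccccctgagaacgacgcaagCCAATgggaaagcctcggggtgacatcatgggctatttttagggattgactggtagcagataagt
Atf3, chr1:191183334-191183583, minus strand: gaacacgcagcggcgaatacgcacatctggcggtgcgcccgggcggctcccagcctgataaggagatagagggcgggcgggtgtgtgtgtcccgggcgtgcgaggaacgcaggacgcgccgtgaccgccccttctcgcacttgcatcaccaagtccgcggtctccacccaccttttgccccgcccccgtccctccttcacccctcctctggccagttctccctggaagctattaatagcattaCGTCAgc
Dusp1, chr17:26508473-26508722, minus strand: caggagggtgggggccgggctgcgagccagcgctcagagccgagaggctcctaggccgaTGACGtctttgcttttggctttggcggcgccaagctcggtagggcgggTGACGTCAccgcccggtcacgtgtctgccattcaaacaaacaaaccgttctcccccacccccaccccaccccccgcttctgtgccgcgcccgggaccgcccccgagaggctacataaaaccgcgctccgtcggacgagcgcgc
The core TGACG stood in 5 of the 8 promoters, those of Fos, Fosb, Junb, Atf3 and Dusp1, beside 17.8% of all 32851 promoters of the same length. The full CRE stood in Dusp1, at -143 to -136 from the start, beside 1.55% of all promoters. No AP-1 match stood in any of the 8 windows, beside 6.75% of all. A CArG box, the site of serum response factor, stood in Zfp36 (1.47% of all), and TATAAA stood in Fos at -33 to -28 (7.59% of all). A match is a run of letters only, and a missing match says only that these letters are not in this window.

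Column names ended in 1 of 2 suffixes, and neither the labels nor the file ties a suffix to PIN or PCa, so the cells are given as barcode set 1 (6332 cells, median 17235 UMIs) and barcode set 2 (9410 cells, median 14824.5 UMIs), and no comparison of PIN with PCa was made. The methods also name a cell number for each sample, which for PIN equals that of the first set and for PCa is close to that of the second, but groups were taken from the labels alone. The sets shared 67 barcodes. Cells were gated by marker genes into classes, called here basal-like, luminal-like and so on, and 11 combinations of class and set held 50 or more cells. In these, 5 or more of each class's markers in the table were higher than in all other classes, and Epcam stood at 490 to 3032 CPM in the epithelial classes against 29.5 to 86.3 CPM elsewhere. Luminal-like cells differed between the sets in these markers. Epcam was at 2319 CPM in set 1 and 490 CPM in set 2, and the luminal marker Pbsn at 3239 and 335 CPM. All 7 luminal markers were highest there in set 1, and 5 in set 2. Levels are in CPM, a gene's share of all UMIs of 1 class in 1 set, on which 10000 CPM is 1% of UMIs. Intervals are exact 95% intervals for counting error only, since cells of 1 library are not replicates, and no p-value was computed. Levels are compared within a gene, across cells.

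Fibroblast-like cells carried the highest summed level of the 10 genes. It was 16853 CPM (interval 16626 to 17082) in set 1 and 13967 CPM (13783 to 14153) in set 2. Luminal-like cells of set 2 followed with 12259 CPM (12243 to 12276), above endothelial-like cells of set 2 at 7931 CPM. Luminal-like cells of set 1 stood at 6934 CPM (6916 to 6951) and proximal or urethral luminal-like cells of set 1 at 6472 CPM. Basal-like cells stood at 4780 CPM in set 1 and 4353 CPM in set 2, T and NK-like cells of set 1 at 4508 CPM, and myeloid-like cells at 3387 CPM and 4367 CPM. After thinning every cell to 3000 UMIs, the median cell showed 9 of the 10 genes in fibroblast-like cells of set 1, 7 in those of set 2 and in luminal-like cells of set 2, 6 in luminal-like cells of set 1, 5 in basal-like cells and 4 in leukocyte-like cells. No class is known to lack these genes, so none served as a background.

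**Figure D1:**
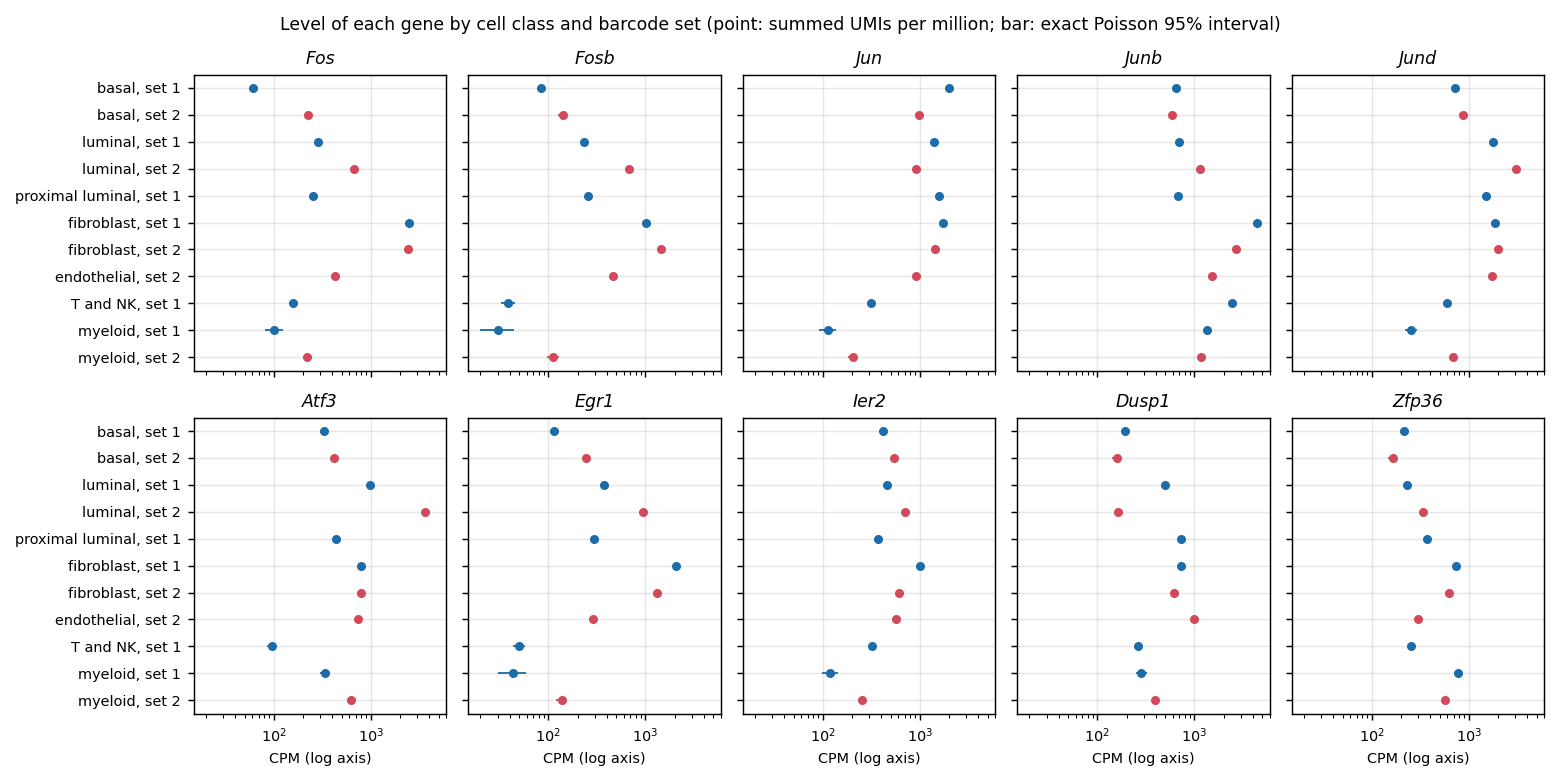
Level of each gene in CPM (log axis) for the 11 combinations of class and barcode set with 50 or more cells, blue for set 1 and red for set 2, with exact Poisson 95% intervals. Fos, Fosb and Egr1 stand to the right in fibroblast-like cells, Atf3 and Jund in luminal-like cells of set 2, and Jun to the left in leukocyte-like cells.

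Fos and Fosb, the inducible FOS family subunits, were highest in fibroblast-like cells. Fos stood at 2483 CPM in set 1 and 2390 CPM in set 2 there, which did not differ beyond counting error, and was seen in 76.2% and 61.8% of cells at 3000 UMIs. In luminal-like cells it was 284 CPM in set 1 and 663 CPM in set 2, seen in 32.9% and 55.6% of cells. Basal-like cells of set 1 were lowest of all 11, at 60.7 CPM (57.3 to 64.2), against 223 CPM (203 to 245) in set 2. The fold from the highest to the lowest combination was 40.9. Fosb spanned a fold of 48.0, from 1455 CPM in fibroblast-like cells of set 2 to 30.3 CPM in myeloid-like cells of set 1. Its luminal-like levels were 231 CPM in set 1 and 675 CPM in set 2, and its basal-like levels 84.3 CPM and 141 CPM.

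The JUN family genes each had their own order of classes. Jun, the stress-activated subunit, was highest in basal-like cells of set 1 at 1999 CPM (1979 to 2018) and was seen in 94.0% of them, against 991 CPM in set 2. In luminal-like cells it stood at 1400 CPM (set 1) and 910 CPM (set 2), and at 112 to 311 CPM in leukocyte-like cells. The fold across classes was 17.9. Junb was highest in fibroblast-like cells, at 4406 and 2713 CPM, and next in T and NK-like cells at 2428 CPM. Its basal-like levels were 651 and 591 CPM and its luminal-like levels 695 and 1145 CPM. Jund, the JUN gene with the steadiest expression in most tissues, was highest in luminal-like cells of set 2 at 3073 CPM and was seen in 98.9% of them. Myeloid-like cells of set 1 were lowest in Jund, at 254 CPM.

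Atf3 showed the widest gap between the luminal-like cells of the sets. It stood at 3645 CPM (3636 to 3654) in set 2, seen in 95.4% of cells, and at 990 CPM (983 to 996) in set 1, seen in 70.1%. All other combinations were lower, from 794 CPM in fibroblast-like cells of set 2 to 95.5 CPM in T and NK-like cells, and basal-like cells had 328 and 417 CPM. Egr1, like Fos, was highest in fibroblast-like cells, with 2069 and 1330 CPM there, 373 and 945 CPM in luminal-like cells, 115 and 244 CPM in basal-like cells and 43.1 CPM at the lowest, in myeloid-like cells of set 1. Ier2, a small early response gene, had a narrower span, with a fold of 8.38 from 996 CPM in fibroblast-like cells of set 1 to 119 CPM in myeloid-like cells of set 1.

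The feedback genes peaked outside the epithelium. Dusp1 was highest in endothelial-like cells at 981 CPM, seen in 85.4% of them. In luminal-like cells it ran against Atf3, with 494 CPM in set 1 and 165 CPM in set 2, and in basal-like cells it was 194 and 158 CPM. The latter did not differ from luminal-like cells of set 2 beyond counting error. Zfp36 was at 766 CPM in myeloid-like cells of set 1, which did not differ beyond counting error from the 733 CPM of fibroblast-like cells of that set. In set 2 fibroblast-like cells had 624 CPM and myeloid-like cells 568 CPM, whose intervals also overlapped, and the remaining combinations 164 to 369 CPM. The fold of 4.66 between its highest and lowest level was the smallest of the 10 genes.

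Free RNA can carry messages of abundant cells into other droplets. In set 2, EGFP was at 10050 CPM in luminal-like cells and stood at 6.20% of that level in myeloid-like cells, at 8.08% in endothelial-like and at 11.4% in fibroblast-like cells. Pbsn, the androgen-dependent secretory gene probasin, stood at 3.29% to 4.32% of its luminal level in the same classes. Atf3 stood at 17.0% to 21.8% of its luminal level there, and every other gene of the 10 at 14.5% or more. In myeloid-like cells of set 1, EGFP was at 125 CPM, against 958 CPM in luminal-like cells. Jun (112 against 1400 CPM), Egr1 (43.1 against 373 CPM) and Fosb (30.3 against 231 CPM) were there at a share of the luminal level below that of EGFP or level with it, and Jund, at 14.3%, little above it. By EGFP, these 3 levels, the low ends of the folds given for Jun, Egr1 and Fosb, cannot be told apart from background. Pbsn gave a lower background. It was at 36.1 CPM in the same myeloid-like cells against 3239 CPM in luminal-like cells, or 1.12%, a share below that of each of the 3 genes. EGFP is not specific to luminal-like cells in set 1, with 1999 CPM in basal-like and 1575 CPM in proximal or urethral luminal-like cells. Which of EGFP and Pbsn tracks free RNA better in set 1 was not tested. The part of free RNA in these levels was not tested further.

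The sets were then compared within each class that had 50 or more cells in both. In luminal-like cells, 7 of the 10 genes were past 1.5-fold higher in set 2 and 2, Dusp1 and Jun, were past it lower. Of the 5951 genes at 20 CPM or more on either side, 17.6% were past 1.5-fold higher in set 2 and 31.0% past it lower, and the median gene stood at a log2 ratio of -0.19. The median over the 10 genes was 0.76. The log2 ratios of set 2 over set 1 were 1.88 for Atf3, 1.55 for Fosb, 1.34 for Egr1, 1.22 for Fos, 0.79 for Jund, 0.72 for Junb, 0.61 for Ier2 and 0.54 for Zfp36, against -0.62 for Jun and -1.58 for Dusp1. The summed level was higher by 0.82 (0.82 to 0.83).

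In basal-like cells 3 of the 10 genes were past 1.5-fold higher in set 2, beside 8.20% of all genes, and 1 was past it lower, beside 12.3%. Fos had a log2 ratio of 1.88 (1.72 to 2.04), Egr1 of 1.09 and Fosb of 0.74, while Jun had -1.01 (-1.08 to -0.95). The summed level changed little, at -0.14 (-0.17 to -0.10), with Jun lower and 6 of the 10 genes higher. In myeloid-like cells 7 genes were past 1.5-fold higher in set 2, beside 18.5% of all genes, and none lower, beside 22.4%. The largest was Fosb at 1.89 (1.29 to 2.53), with Egr1 at 1.67 and Jund at 1.44. Set 1 held 70 of these cells, with 26 UMIs of Fosb and 37 of Egr1, and set 2 held 218. As given above, by EGFP the set 1 levels of Fosb, Egr1 and Jun could not be told apart from background. Jund was little above it, and Pbsn gave a lower background. The part of free RNA in these ratios was not tested. Fibroblast-like cells went the other way, with none past 1.5-fold higher, beside 18.0% of all genes, and 3 past it lower, beside 11.3%. These were Ier2 at -0.71, Junb at -0.70 and Egr1 at -0.64. Of the 279 fibroblast-like cells of set 2, 42 lay in cluster 15, led by Rgs5 and named smooth muscle-like from its markers, and 52 in cluster 16, led by Igfbp4 and Pi16, against 0 and 1 of the 142 in set 1. Within cluster 8, which held 183 cells of set 2 and 141 of set 1, none of the 3 was past 1.5-fold (Ier2 -0.27, Junb -0.23, Egr1 -0.27) and the summed ratio was -0.03 (-0.06 to 0.00). No set has a replicate, so a difference between tissues and a difference between libraries cannot be told apart.

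The luminal-like cells of the sets fell largely into different graph clusters. The sets were clustered together without alignment, and the part of library differences in this separation was not tested. The paper integrated its 2 samples and reports all epithelial clusters in both, though in unequal numbers. Graph clusters made without the 10 genes placed 688, 2025, 1271, 1811 and 1594 of the 7945 luminal-like cells of set 2 in clusters 10, 13, 14, 17 and 18, none of which held 50 luminal-like cells of set 1. Clusters 1 and 5 held 874 and 1300 of the 2864 luminal-like cells of set 1, and fewer than 50 of set 2. The summed level was 12866 to 14898 CPM in clusters 10, 14, 17 and 18, led by cell cycle genes (Ube2c, Birc5), by Mt4 and Gulo, by Npl and Nkain4, and by Fam25c and Tgm3. It was 9748 CPM in cluster 13, led by Pate4 and genes of seminal secretion such as Svs3b. In set 1 it was 8339 CPM in cluster 1, led by Msmb, and 6397 CPM in cluster 5, led by Clu and Krt6a. Cluster 5 had the most Jun (1821 CPM) and Dusp1 (738 CPM) and the least Atf3 (393 CPM) of the luminal-like groups, whereas cluster 17 had 4743 CPM of Atf3 and 136 CPM of Dusp1. Cluster 4, led by secretory genes such as Tgm4, was found in both sets.

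**Figure D2:**
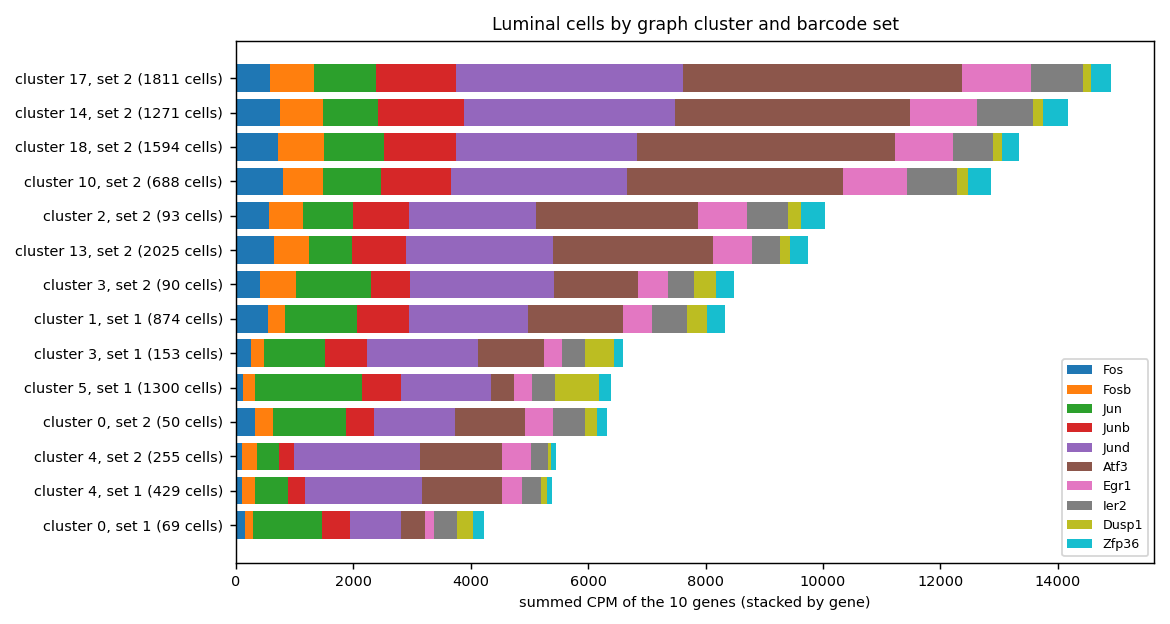
Summed CPM of the 10 genes in luminal-like cells, stacked by gene, for each graph cluster and barcode set with 50 or more cells. Cluster 4 has nearly the same bar in both sets (5392 and 5458 CPM), and the tallest bars, 12866 to 14898 CPM, all belong to set 2 and carry wide Atf3 and Jund segments.

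Within cluster 4 the gap between the sets was nearly gone. The summed level was 5392 CPM in 429 cells of set 1 and 5458 CPM in 255 cells of set 2, a log2 ratio of 0.02 (-0.00 to 0.04). Atf3 had a log2 ratio of 0.02 (-0.02 to 0.05) there, Fos 0.18 and Fosb 0.13. Egr1 kept a ratio of 0.53, and Dusp1 (-1.16, interval -1.35 to -0.98) and Jun (-0.58) stayed lower in set 2. In luminal-like cells of cluster 3, whose leading genes are those of proximal epithelium, the summed ratio was 0.36, with Fosb at 1.43, Zfp36 at 0.90 and Egr1 at 0.76. In those of cluster 0, whose leading genes are basal keratins, it was 0.58, with Egr1 at 1.68, Atf3 at 1.55 and Fosb at 1.19. Fos, Fosb, Egr1 and Jund were higher in set 2 in all 3 shared clusters, and Dusp1 was lower in all 3, each beyond counting error. Jun was lower in 1 of them. Junb was not higher in set 2 in any of the 3 beyond counting error, and in clusters 3 (-0.11) and 4 (-0.14) it was lower.

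Basal-like and luminal-like cells were next split by EGFP. EGFP+ cells were those above the 95th percentile of EGFP in leukocyte-like cells of the same set (3.26 per 10000 UMIs in set 1 and 14.6 in set 2), and EGFP- cells those at or below it. This gave 372 EGFP+ and 1101 EGFP- basal-like cells in set 1, and 114 and 136 in set 2. Luminal-like cells gave 512 and 2352 in set 1, and 7652 and 293 in set 2. From 5 to 37 EGFP+ cells and from 7 to 24 EGFP- cells of a group lay within 1.5-fold of the limit. EGFP- cells are thus cells without EGFP above free RNA. In set 2, where 61.2% of leukocyte-like cells held an EGFP UMI at 3000 UMIs, some EGFP- cells may have carried the reporter at a low level. In EGFP- cells hARtg was at 102 CPM (basal-like) and 33.1 CPM (luminal-like) in set 1, and at 378 and 301 CPM in set 2. In the same order, EGFP+ cells had 703, 674, 636 and 1542 CPM. The split therefore cannot be read as cells with against cells without the transgene.

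In basal-like cells of set 1 none of the 10 genes was past 1.5-fold in either direction, beside 4.97% of all genes higher and 5.34% lower in EGFP+ cells. The summed level was 4315 CPM in EGFP+ and 4973 CPM in EGFP- cells, a log2 ratio of -0.20 (-0.23 to -0.18). Jun was at 1504 CPM in EGFP+ and 2204 CPM in EGFP- cells (-0.55, interval -0.59 to -0.52), just inside 1.5-fold, which is 0.58 on this scale. Fosb (0.42) and Fos (0.38) lay on the other side, at 103 against 76.8 CPM and at 72.4 against 55.8 CPM. In basal-like cells of set 2, Fos and Fosb were the 2 genes past 1.5-fold higher in EGFP+ cells, beside 11.4% of all genes, and none was past it lower, beside 5.21%. Fos was at 287 CPM in EGFP+ and 152 CPM in EGFP- cells (0.91, interval 0.62 to 1.21), and Fosb at 167 and 111 CPM (0.59, interval 0.23 to 0.95). Atf3 (0.52) and Jund (0.50) were also above 0 beyond counting error, and Jun, at 0.29, had the opposite sign to set 1. These calls changed with the choice of cells. Fosb stayed past 1.5-fold in 2 of 9 alternatives and fell to 0.19 with graph clusters in place of gates. Fos stayed past it in 7 of 9, with 0.39 without a gate margin and 0.17 with graph clusters.

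In luminal-like cells of set 1, Fos and Atf3 were past 1.5-fold higher in EGFP+ cells, beside 5.94% of all genes, and none was past it lower, beside 8.73%. Fos was at 452 CPM in EGFP+ and 243 CPM in EGFP- cells (0.90, interval 0.86 to 0.93), and Atf3 at 1402 and 889 CPM (0.66). Dusp1 (376 and 522 CPM, -0.47) and Jun (1097 and 1473 CPM, -0.43) were lower, but with EGFP+ cells taken as those with 1 or more EGFP UMIs against 0, both were above 0 (0.06 and 0.12). Atf3 had 0.32 under that split and 0.53 after thinning, and Fos had 0.56 in cells under 5% mitochondrial UMIs, none of them past 1.5-fold. The median gene tested stood at -0.15, and the summed level at 0.09 (0.08 to 0.10). The sides of the split also held different cells, and the part of clusters in these shifts was not tested. Cluster 5, low in Fos and Atf3, held 52.1% of EGFP- but 14.6% of EGFP+ luminal-like cells, and cluster 1 held 27.0% and 46.7%. Within cluster 1 the ratios were 0.49 for Fos, 0.26 for Atf3, -0.24 for Jun and -0.06 for Dusp1. Within cluster 5, Fos was lower in EGFP+ cells (-0.39, interval -0.58 to -0.21), as was Fosb (-0.49), and Atf3 was higher (0.49).

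In luminal-like cells of set 2, 8 of the 10 genes were past 1.5-fold higher in EGFP+ cells, beside 18.4% of all genes, and none was past it lower, beside 26.2%. The summed level was 12459 CPM in EGFP+ and 6253 CPM in EGFP- cells, a log2 ratio of 0.99 (0.98 to 1.01). Fos was at 677 against 218 CPM (1.63, interval 1.55 to 1.72), Junb at 1170 against 387 CPM (1.60), Atf3 at 3715 against 1524 CPM (1.29) and Fosb at 687 against 307 CPM (1.16). Zfp36 (1.01), Ier2 (0.96), Jun (0.91) and Egr1 (0.91) were past 1.5-fold too, and Jund (0.52) and Dusp1 (0.51) were not. Most EGFP- cells here belonged to cluster 4, which held 58.4% of them and 1.10% of EGFP+ cells. Within cluster 4, with 84 EGFP+ and 171 EGFP- cells, the summed ratio was 0.29 (0.26 to 0.32), or 6139 against 5025 CPM, and Junb (0.78) and Zfp36 (0.77) were past 1.5-fold. Fos had 0.29 there and Atf3 0.39. All 10 genes had a ratio above 0 within cluster 4, and for Jund (0.03) the interval of -0.02 to 0.08 included 0. No share past 1.5-fold and no median over all genes was taken within cluster 4, so these values have no such background beside them.

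**Figure D3:**
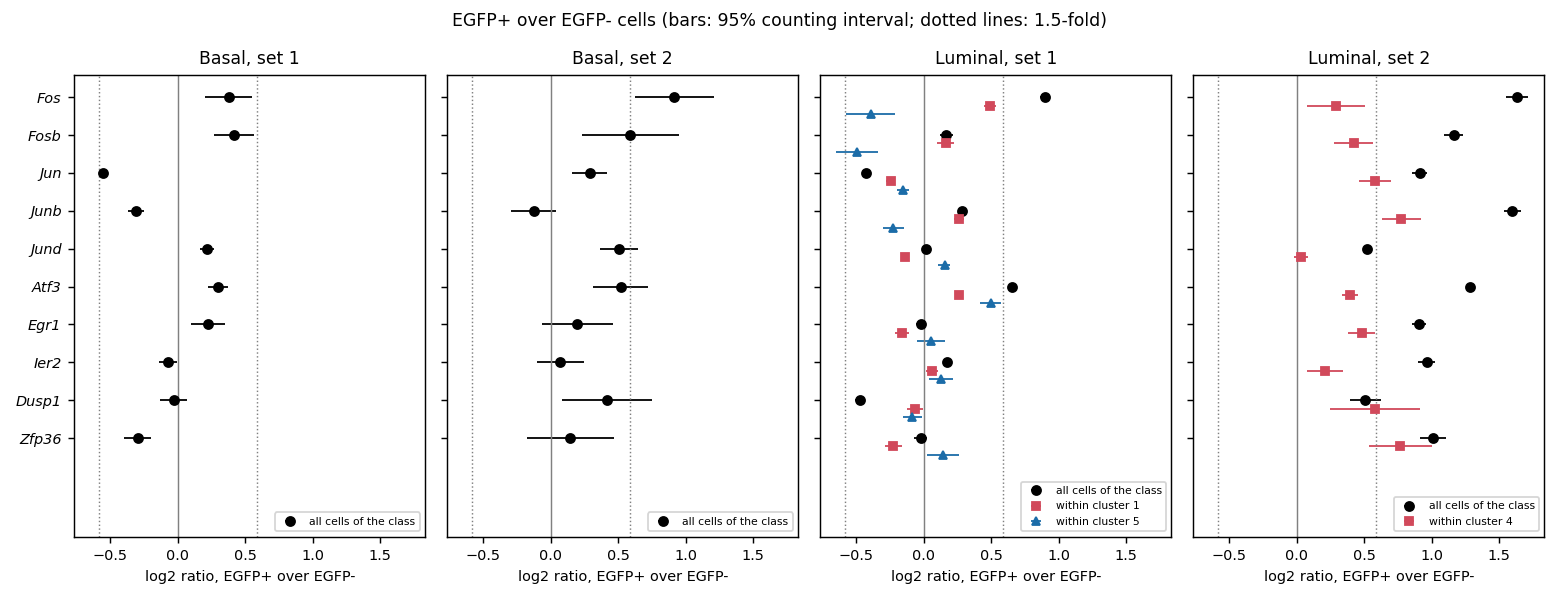
Log2 ratio of each gene in EGFP+ over EGFP- cells for basal-like and luminal-like cells of each barcode set, with 95% counting intervals, dotted lines at 1.5-fold, and for luminal-like cells the same ratio within single graph clusters. The luminal-like ratios of set 2 over all cells reach 1.63, whereas those within cluster 4 do not exceed 0.78.

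Among EGFP+ cells alone the sets still differed. In EGFP+ luminal-like cells 5 genes were past 1.5-fold higher in set 2, beside 19.2% of all genes, and Dusp1 alone past it lower, beside 25.6%. Fosb had a log2 ratio of 1.44, Atf3 of 1.41, Egr1 of 1.38, Jund of 0.79 and Fos of 0.59, against -1.17 for Dusp1. Fos lay almost on the 1.5-fold limit, which its interval of 0.55 to 0.62 included, and Zfp36 (0.58) lay just inside it. These EGFP+ cells too lay in different clusters. Clusters 13, 17 and 18 held 26.4%, 23.6% and 20.8% of those of set 2. Clusters 1, 3 and 5 held 46.7%, 23.0% and 14.6% of those of set 1. The part of clusters in the difference was not tested. In EGFP+ basal-like cells Fos (1.98, interval 1.77 to 2.20), Egr1 (1.02) and Fosb (0.71) were past 1.5-fold higher, beside 14.1% of all genes, and none lower, beside 12.8%. The hARtg level of EGFP+ luminal-like cells also differed, at 674 CPM in set 1 and 1542 CPM in set 2, and its part in the difference was not tested. In EGFP+ basal-like cells hARtg was at 703 and 636 CPM.

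Whether the genes were found in the same cells was examined by splitting each class into cells with (Fos+) and without (Fos-) a Fos UMI after thinning to 3000 UMIs. The other 9 genes were all higher in Fos+ cells in each of the 9 combinations of class and set that held 50 cells on both sides. None was past 1.5-fold lower in any of them. Each class was split with its clusters pooled, and the part of differences between clusters in these ratios was not tested. Luminal-like set 1 had Fos at 551 CPM and Atf3 at 1621 CPM in cluster 1, against 131 and 393 CPM in cluster 5. Fibroblast-like cells of set 2 lay mostly in clusters 8, 15 and 16. In fibroblast-like cells of set 2, 8 of the 9 were past 1.5-fold higher, when 15.6% of all genes were past it higher and 18.3% lower, with Zfp36 at 2.83, Jun at 2.53 and Egr1 at 2.43, and a summed level of 15264 CPM in Fos+ and 5344 CPM in Fos- cells. In myeloid-like cells of set 2 all 9 were past 1.5-fold higher, beside 12.4% of all genes higher and 9.88% lower, led by Egr1 (2.58), Jun (2.39) and Ier2 (2.36). All 9 were past it in T and NK-like cells too, beside 9.66% higher and 10.3% lower, led by Egr1 (2.47).

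The median ratio over the 9 genes was 0.60 to 0.88 in the epithelial classes. It was 1.60 in fibroblast-like, 1.61 in myeloid-like and 0.94 in T and NK-like cells. Endothelial-like cells had the lowest median, 0.56, so smaller ratios were not limited to the epithelium. Among luminal-like cells of set 2, 7 of 9 were past 1.5-fold beside 0.647% of all genes higher and 1.76% lower, with Zfp36 at 0.93, Junb and Fosb at 0.86 and Jun at 0.85, while Atf3 (0.27) and Jund (0.08) moved little. For set 1, 6 of 9 were past it, beside 4.02% higher and 1.96% lower, led by Egr1 (1.09), Fosb (1.07) and Atf3 (1.02), and Dusp1 was at 0.22. In basal-like cells 6 of 9 were past it in each set, beside 3.45% higher and 0.730% lower in set 1, and 12.1% higher and 8.10% lower in set 2, led by Fosb (1.93 and 1.87) and Egr1 (1.91 and 1.64). Jun, seen in 94.0% and 80.9% of basal-like cells, was at 0.32 and 0.29. Proximal or urethral luminal-like cells had 6 of 9 past it, beside 4.17% higher and 4.43% lower, and endothelial-like cells 4 of 9, beside 8.60% higher and 9.59% lower. Fos+ cells had a higher median mitochondrial share than Fos- cells in luminal-like cells of set 1 (4.61% against 3.58%) and in proximal or urethral luminal-like cells (7.12% against 5.01%), and the part of cell quality in these ratios was not tested.

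**Figure D4:**
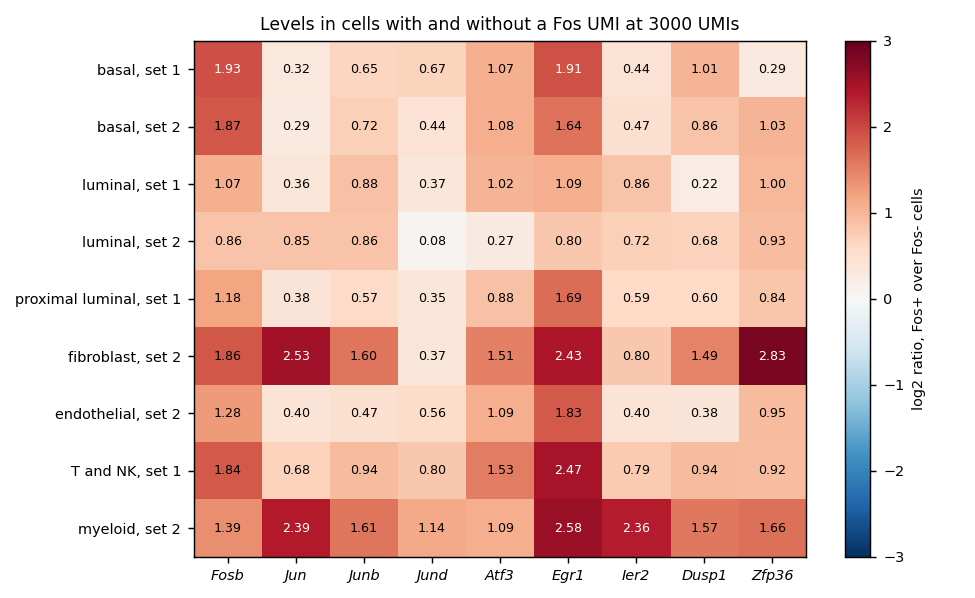
Log2 ratio of the other 9 genes in Fos+ over Fos- cells, where Fos+ cells had a Fos UMI after thinning to 3000 UMIs, for the 9 combinations of class and set with 50 or more cells on both sides (numbers and colour give the ratio). Every value is above 0, from 0.08 for Jund in luminal-like cells of set 2 to 2.83 for Zfp36 in fibroblast-like cells.

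Pairs of genes were also correlated across the cells of a class and set, as a description, on the deposited log scale. Cells of a set share a library, and sparse counts and uneven depth, which was not matched here, can shift the values. The median Pearson r over the 45 pairs was lowest in T and NK-like cells (0.16, 776 cells) and highest in fibroblast-like cells of set 1 (0.46, 142 cells), with 0.36 and 0.44 in luminal-like cells of sets 1 and 2. Within luminal-like set 2, Junb and Egr1 had an r of 0.68, and Jund and Atf3 of 0.66. In set 1 the highest was Jun with Dusp1, at 0.60. Atf3 and Dusp1 were the pair with the lowest r in the luminal-like cells of both sets, at -0.17 in 2864 cells of set 1 and -0.10 in 7945 cells of set 2. These values pool clusters of unlike levels. In set 1, Dusp1 stood at 738 CPM in cluster 5 and 335 CPM in cluster 1, and Atf3 at 393 and 1621 CPM. The part of differences between clusters in the correlations was not tested.

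**Figure D5:**
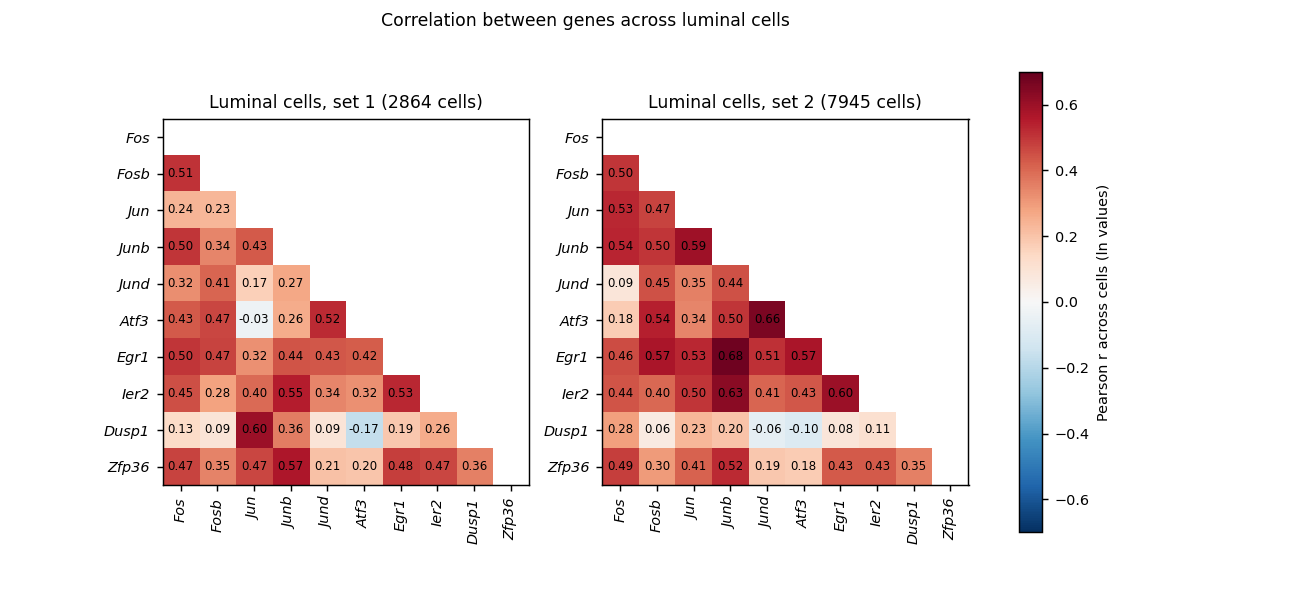
Pearson r across luminal-like cells for each pair of the 10 genes in set 1 (left) and set 2 (right), on the deposited log scale. Most pairs are above 0, and Dusp1 with Atf3 is below 0 in both sets (-0.17 and -0.10).

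Heat shock genes, which also rise when tissue is digested at 37 °C, were read beside the 10 genes as a list of 11. Luminal-like cells had 13108 CPM of this list in set 1 and 22018 CPM in set 2, so it moved with the luminal gap between the sets, with a log2 ratio of 0.75. Hspb1 made up much of it, at 3997 and 9695 CPM, with Hsp90ab1 at 2592 and 4097 CPM and Hspa8 at 1731 and 2916 CPM. Leukocyte-like cells were low in both lists, with 6801 to 7821 CPM of heat shock genes. Fibroblast-like cells, highest in the early response genes, had 11271 and 12461 CPM of heat shock genes, less than the 14071 and 15708 CPM of basal-like cells, which were low in the early response genes. Within cluster 4 heat shock genes were at 11923 and 12525 CPM in sets 1 and 2. EGFP+ and EGFP- luminal-like cells of set 2 had 22355 and 11863 CPM, and Fos+ and Fos- ones 22305 and 21637 CPM. Across single luminal-like cells the summed early response level and the summed heat shock level had an r of 0.06 in set 1 and 0.40 in set 2. The part of dissociation in the levels was not tested.

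Depth and mitochondrial share were read the same way. With the cells of a class cut into 3 equal parts by mitochondrial share, luminal-like set 1 had 6318 CPM of the 10 genes in the lowest part and 7908 CPM in the highest. In set 2 the order was the opposite, with 12868 and 11480 CPM. In basal-like cells of set 2 the values were 4202 and 5246 CPM. Cells were also cut into 3 equal parts by UMIs per cell. The part with the fewest and the part with the most UMIs had 6821 and 7180 CPM for luminal-like set 1, 13535 and 11961 CPM for luminal-like set 2, and 5148 and 4535 CPM for basal-like set 1.

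Other genes of the pathway followed only in part. Of 9 further AP-1 and related genes, 6 reached 20 CPM in luminal-like cells. Of these, 1 was past 1.5-fold higher in set 2 and 2 past it lower, near the 17.6% and 31.0% of all genes. Their summed level was 1868 and 1977 CPM, a log2 ratio of 0.08. Atf4, a factor of the integrated stress response, had 812 and 958 CPM there, Maff 517 and 688 CPM, and Fosl1, a late FOS family gene, 261 and 105 CPM. Of 31 further early response genes, 30 were in the table and 27 reached 20 CPM in luminal-like cells, 6 past 1.5-fold higher in set 2 and 12 past it lower, beside 17.6% and 31.0% of all genes. Their summed level had a log2 ratio of -0.42, whereas the median gene of the list was at -0.08, beside -0.19 over all genes, with 13 of 27 above 0. Nfkbia, the inhibitor of NF-kappa-B, was at 716 and 227 CPM, Btg1 at 1195 and 584 CPM, and Gadd45g at 133 and 445 CPM. In fibroblast-like cells this list summed to 23789 and 16558 CPM, its highest levels too, with Gadd45g at 4964 and 3273 CPM.

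The kinases and factors upstream were read as a list of 9 genes that included Egfr and Srf. Luminal-like cells had 452 and 449 CPM of them in sets 1 and 2. They summed to 508 and 467 CPM in basal-like cells, to 416 and 421 CPM in fibroblast-like cells and to 719 CPM in endothelial-like cells. Mapk3 (ERK1) was at 99.8 and 130 CPM in luminal-like cells, and Map2k1 (MEK1) at 35.7 and 23.7 CPM. None of this list was past 1.5-fold higher in luminal-like cells of set 2, beside 17.6% of all genes. Of the 7 tested, 3 were past it lower, beside 31.0% of all genes.

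The genes whose pattern over the 11 combinations was most like the mean pattern of the 10, by Pearson r of log2(CPM + 10), were sought among 9424 others that reached 20 CPM. The first 10 were a gene listed as 8-Sep, Alg14, Lamb2, Il1r1, Gpx3, Gata2, Acyp2, Rnd2, Shisa4 and C330006A16Rik, with r of 0.96 to 0.94. Of these, 9 were highest in fibroblast-like cells and Gata2 in endothelial-like cells. With a pseudocount of 1 in place of 10, 7 of them were kept, and among genes reaching 50 CPM, 5. Nr4a1, another early response gene, was at rank 17 (r = 0.92). Among the 10 genes themselves, Fosb (0.97), Egr1 (0.95) and Fos (0.92) followed the mean of the other 9 most closely, and Zfp36 (0.22) and Junb (0.40) least.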

How the data were processed

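Single cells of 1 PIN and 1 PCa tissue were profiled with 10x 3′ v2 chemistry. The authors counted UMIs with Cell Ranger 3.1.0 against mm10 with the mGFP and hARtg sequences added, removed empty droplets, multiplets and cells of high mitochondrial share, and deposited 1 table of natural log values, ln(1 + 10000 × UMIs of the gene / UMIs of the cell). Back-transformed values summed to 10000 in every cell and gave whole UMIs for 100% of values above 0 (tolerance 0.001). UMIs were summed per class and barcode set. The design assumed 1 library a group, so ratios carry counting intervals only, and no count model or p-value was used.

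Each cell was gated to the class with the highest mean of marker values, each divided by its 95th percentile and capped at 1, with a margin of 0.05 over the next class and 3 markers seen. The gate was settled after the data were seen. Scrublet (expected rate 6%, limit 0.25) marked 2.45% of cells in set 1 and 1.86% in set 2 as doublets, which were left out. Graph clusters (scanpy 1.11.5, 2000 variable genes, 20 components, 20 neighbours, Leiden resolution 0.5) were made without the 10 genes, the gene lists, EGFP and ARQ. The 2 sets were not aligned to each other before clustering. A gene was tested against 1.5-fold if it reached 20 CPM on either side, and groups needed 50 cells. Shares of cells were taken after thinning to 3000 UMIs, which left out shallower cells, 213 of the 776 T and NK-like cells and 2 to 88 in the epithelial groups. Intervals were exact Poisson for levels, Clopper-Pearson for shares and conditional binomial for ratios, at 95%. Promoters were read from RefSeq sequence of GRCm38.p6. Calculations used Python 3.11.15, numpy 2.4.6, scipy 1.17.1 and pandas 2.3.3, and were checked on simulated data.

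The 10 genes and the lists were chosen with earlier results of these data known. Genes outside the 10 were named as the 3 highest of each list by mean CPM, of which 1 is not reported here, and the 10 most alike in pattern. Nr4a1 was named after its value was seen, as were the leading genes of clusters. Alternatives changed the gate, its margin, doublets, scaling, cell weights, depth, mitochondrial share and the EGFP limit. Within-cluster ratios, for the sum and for each gene, and the removal of barcodes shared by the sets were added after seeing the data.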

Additional observations from a re-analysis of the deposited data

How the results depend on the processing

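No paired analysis was possible because a group holds a single library and no cell is tied to a sample. Of 737 values recomputed, 392 stayed within the counting interval of the main value, 339 moved beyond it and 6 called values changed sign, all within single clusters. These were Fos in the EGFP split of luminal-like set 1 (-0.39 in cluster 5), and in the luminal comparison of the sets Jun (0.084 in cluster 0 and 0.29 in cluster 3), Junb (-0.11 in cluster 3 and -0.14 in cluster 4) and Ier2 (-0.13 in cluster 4). The summed levels (basal-like set 1, basal-like set 2, luminal-like set 1, luminal-like set 2) moved to 5205, 4810, 7454 and 13428 CPM when scaled without mitochondrial genes and genes over 1% of UMIs, to 4704, 3962, 6512 and 12805 CPM in cells under 5% mitochondrial UMIs, and to 4651, 4727, 6971 and 12298.5 CPM with graph clusters in place of gates. Luminal-like levels became 6897 and 12238 CPM with doublets kept. Without a gate margin, the basal-like level was 4569 CPM in set 2 and the luminal-like level 6901 CPM in set 1. With the margin doubled, levels were 4749 and 4074 CPM for basal-like sets 1 and 2 and 12282 CPM for luminal-like set 2. With every cell weighing the same, basal-like cells of set 1 had 4942 CPM and luminal-like cells of set 2 had 12592 CPM.

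The summed EGFP+ over EGFP- log2 ratio in luminal-like cells of set 2 was 0.93 with graph clusters, 0.90 with equal weights, 1.01 in cells of 3000 or more UMIs, 1.30 under 5% mitochondrial UMIs and 0.29 within cluster 4. In luminal-like cells of set 1 it was 0.063 with doublets kept, 0.080 without a margin, 0.10 with the margin doubled, 0.16 with graph clusters and with equal weights, 0.10 under the other scaling, -0.0073 under 5% mitochondrial UMIs, 0.19 and 0.20 for cells with 1 or more and 5 or more EGFP UMIs against 0, 0.11 after thinning, 0.037 within cluster 1 and -0.0042 within cluster 5. In basal-like cells of set 1 it was -0.17 with graph clusters, -0.11 with equal weights, -0.061 for 1 or more EGFP UMIs against 0 and -0.16 after thinning. In basal-like cells of set 2 it was 0.15 with the margin doubled and with equal weights, 0.12 with graph clusters, 0.22 under 5% mitochondrial UMIs and 0.24 within cluster 0. The luminal log2 ratio of set 2 over set 1 was 0.58, 0.36 and 0.018 within clusters 0, 3 and 4. The within-cluster values compare fewer cells of 1 kind, and the cause of the other moves was not tested. Splits against cells with 0 EGFP UMIs were not run in set 2, which had 17 basal-like and 19 luminal-like cells of that kind, nor was the thinned split in basal-like cells of set 2, with 47 EGFP- cells. Depth limited T and NK-like cells most, with a median of 3629.5 UMIs.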
